A study of Mus musculus with 72 samples.

Results

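The genes described here are 32 genes whose products copy DNA or divide the cell, chosen by gene symbol from the table of reads counted in the sense direction. All 32 were found among the 27846 genes of that table, and all 32 were among the 15066 genes with enough reads to be tested. They fall into 15 genes of DNA replication (Ccne1, Ccne2, Cdc45, Cdc6, Mcm2, Mcm3, Mcm4, Mcm5, Mcm6, Mcm7, Pcna, Tk1, Rrm1, Rrm2 and Tyms) and 17 genes of mitosis (Mki67, Top2a, Cdk1, Ccna2, Ccnb1, Ccnb2, Bub1, Bub1b, Birc5, Aurka, Aurkb, Plk1, Cdc20, Kif11, Cenpe, Nusap1 and Foxm1). Messenger RNA was sequenced from whole liver of wild type C57bl6 mice, 8 to 16 weeks old, female or male, that were kept as controls or under a misalignment paradigm and sampled at 0, 4, 8, 12, 16 or 20 h of clock time. Each of the 24 groups held 3 livers, which the series describes as biological replicates, so each combination of sex and treatment held 18 livers. Both treatments shared a light and dark cycle of 12 h each, free access to food and water, and a high-fat diet (42% of calories from fat) from the first week of the paradigm. The labels used here give neither the schedule of the misalignment nor the relation of clock time to lights on.

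A cell that is about to divide first makes the enzymes of nucleotide supply and of the replication fork, under the E2F transcription factors, and later makes the kinases, cyclins and spindle proteins of mitosis, whose promoters are known for CHR elements and CCAAT boxes bound by the MuvB and NF-Y complexes. Adult liver cells seldom divide, but they re-enter the cycle after injury or loss of tissue. The circadian clock is known to reach the cell cycle in regenerating liver through Wee1, a kinase that holds Cdk1 inactive.

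Promoters of 27 of the 32 genes were matched by symbol in the RefSeq annotation of GRCm38.p6, and the 250 bases before each annotated start were searched on both strands for 4 short motifs. Ccne2, Mcm4, Ccna2, Aurkb and Foxm1 were not matched. The CCAAT box (CCAAT) was in 12 of 14 mitosis promoters (85.7%), in 9 of 13 replication genes (69.2%) and in 33.8% of all 32851 promoters. The CHR (TTTGAA) was in 6 of 14 mitosis promoters (42.9%), those of Mki67, Top2a, Cdk1, Ccnb2, Cdc20 and Kif11, against 2 of 13 replication genes (15.4%) and 16.0% of all promoters. An E2F site (TTTNNCGC) was in 4 of 13 replication genes (30.8%), Mcm5, Mcm6, Mcm7 and Cdc6, in the mitosis gene Cdk1 (7.14%) and in 4.28% of all promoters. The clock's E-box (CACGTG) was in the window of Tyms alone among the 27 matched genes, while 6.02% of all promoters held it. The windows of Tk1, Ccne1, Birc5 and Nusap1 held none of the 4 motifs. The 5 stretches below are the 150 bases directly before the start, 5′ to 3′ on the gene's strand, with matches to CCAAT, CHR or E2F motifs on either strand in capitals. Mcm6 (chr1:128359706-128359855, minus strand) and Mcm5 (chr8:75109359-75109508, plus strand) are shown because they carry E2F and CCAAT matches and have the largest daily range in control males among the MCM genes.
Mcm6: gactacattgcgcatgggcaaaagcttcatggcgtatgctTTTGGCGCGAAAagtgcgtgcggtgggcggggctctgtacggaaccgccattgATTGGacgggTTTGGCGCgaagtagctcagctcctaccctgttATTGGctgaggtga
Mcm5: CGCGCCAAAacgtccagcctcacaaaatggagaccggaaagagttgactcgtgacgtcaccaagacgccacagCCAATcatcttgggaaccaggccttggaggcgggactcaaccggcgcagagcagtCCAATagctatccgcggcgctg
The E2F matches of Mcm6 begin 110, 106 and 47 bases before the start, the first 2 overlapping, and those of Mcm5 begin 153 and 149 bases before it, so that the first lies partly outside the printed stretch. Top2a (chr11:99024190-99024339, minus strand), Mki67 (chr7:135716380-135716529, minus strand) and Ccnb2 (chr9:70421555-70421704, minus strand) are shown for the mitosis genes, which moved together from liver to liver.
Top2a: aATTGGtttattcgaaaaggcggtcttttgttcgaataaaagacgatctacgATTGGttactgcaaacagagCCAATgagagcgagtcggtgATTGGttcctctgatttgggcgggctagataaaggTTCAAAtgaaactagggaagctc
Mki67: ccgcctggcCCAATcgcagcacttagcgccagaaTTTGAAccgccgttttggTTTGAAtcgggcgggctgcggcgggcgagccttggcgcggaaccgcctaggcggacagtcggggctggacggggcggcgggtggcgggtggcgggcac
Ccnb2: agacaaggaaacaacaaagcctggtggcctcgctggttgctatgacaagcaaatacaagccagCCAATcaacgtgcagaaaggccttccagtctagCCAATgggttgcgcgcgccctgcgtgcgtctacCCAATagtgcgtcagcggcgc
Ccnb2 holds CCAAT at 87, 54 and 21 bases before its start, evenly spaced. Top2a holds 4 of its 6 CCAAT matches and a CHR, at 23 bases before the start, in the printed stretch, and Mki67 holds CHR matches at 116 and 98 bases before its start. A match is a stretch of letters, and no binding was measured here.

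Library totals lay between 11551524 and 12529963 counts, and the 32 genes together took 0.0110% to 0.0390% of a library. Levels are given as CPM, a gene's reads relative to the scaled total of its library. Pcna, the sliding clamp of the replication fork, was the most abundant of the 32 (lowest 22.2, median 30.0 and highest 54.8 CPM over 72 livers). Tk1, the cytosolic thymidine kinase that salvages thymidine for DNA synthesis, followed with 8.66, 24.9 and 64.9 CPM. Per kilobase of exon, Pcna stood at a median of 12.5 CPM, Tk1 at 4.78 and the helicase subunit Mcm7 at 3.67, while Bub1, a kinase of the spindle checkpoint, stood at 0.098 and Cenpe, a kinetochore motor, at 0.070.  Bub1 had no read in 4 livers, Cenpe in 2 and Cdc6, which loads the replicative helicase, in 1. A count of 0 there still allows 3 counts, or up to 0.270 CPM. In whole liver, fewer dividing cells and less messenger RNA per dividing cell cannot be told apart.

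Sex was the factor with the most calls. In control livers 24 of the 32 genes differed between females and males (edgeR's quasi-likelihood test averaged over the 6 clock times, Benjamini-Hochberg adjusted p under 0.05), where 32.9% of all tested genes did. Of these, 23 were lower in females, against 17% of all genes, and 1, Tk1, was higher, against 16%. The median log2 difference, female minus male, was -0.69 over the 32 genes, -0.48 over the replication genes and -0.92 over the mitosis genes, and 0.01 over all tested genes. In misaligned livers 28 of 32 differed, 27 of them lower in females and again Tk1 higher, where 37.7% of all genes differed and 19.9% were lower. There the median over the 32 genes was -0.91. The 2 treatments shared 21 of these calls. The p-values measure the spread between these livers. The 32 genes tended to move together between livers, as described further down, so 23 lower genes are not 23 separate results. The levels of every one of the 32 genes overlapped between the sexes in both treatments. The share of all tested genes that overlapped in this way is not given here, so the overlap is not shown to be particular to the 32.

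**Figure D1:**
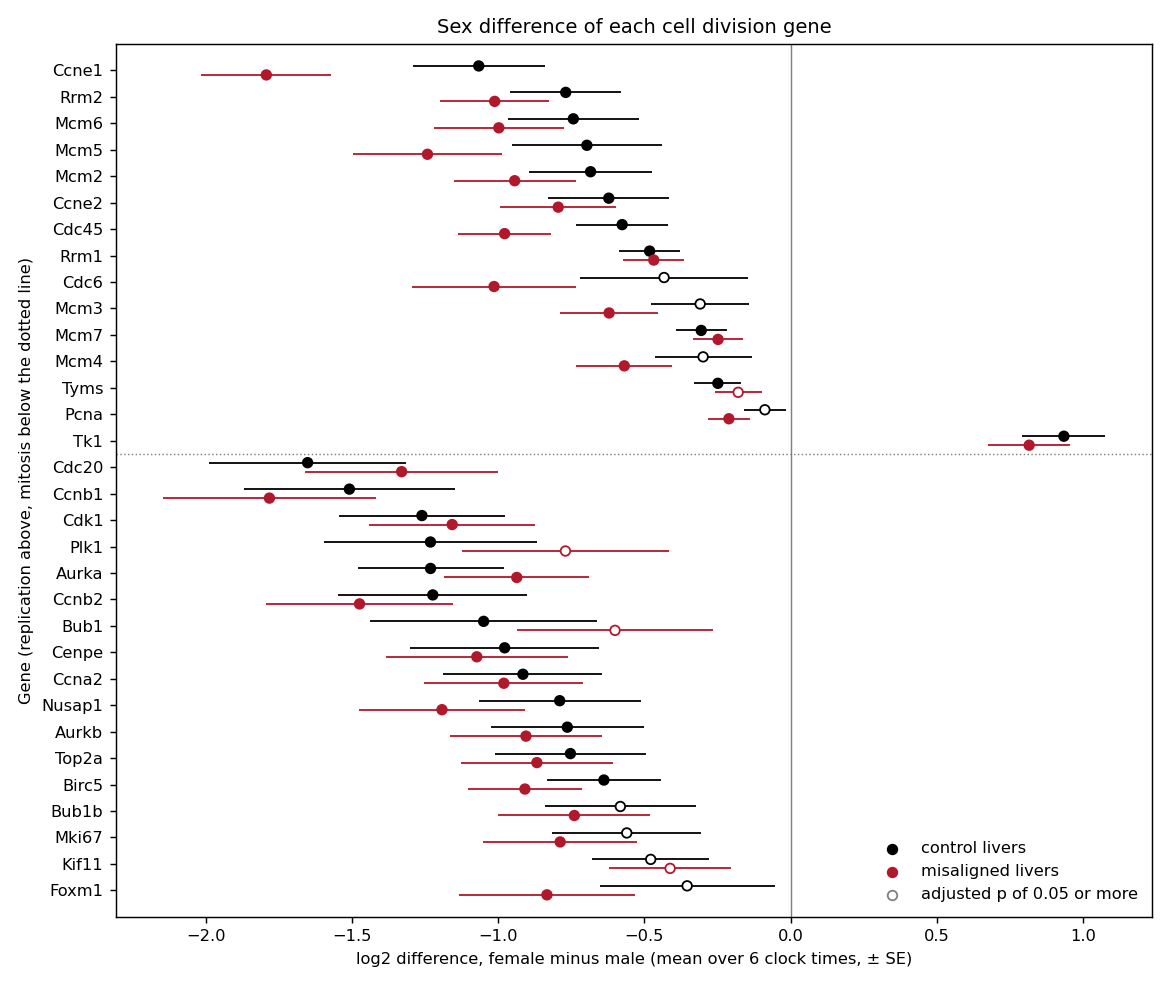
Log2 difference, female minus male, averaged over 6 clock times, with its standard error, for each of the 32 genes in control (black) and misaligned (red) livers; filled points have an adjusted p under 0.05. The points of 31 genes lie left of 0 in both treatments, and those of Tk1 lie to the right, at 0.94 and 0.82.

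Among the replication genes, Ccne1, the cyclin that starts S phase together with Cdk2, differed most. Female control livers held 0.165, 0.816 and 1.40 CPM (lowest, median, highest) and male control livers 0.451, 1.5 and 5.0 CPM, with 10 of 18 males above every female. Its log2 difference was -1.07 ± 0.23 (SE, adjusted p = 1.68e-04) in controls and -1.79 ± 0.22 (adjusted p = 2.9e-09) in misaligned livers, where 12 of 18 males lay above every female. Its sister cyclin Ccne2 was lower by less, at -0.62 ± 0.21 (adjusted p = 0.0164) in controls and -0.79 ± 0.20 (adjusted p = 0.00105) under misalignment. Ccne1 was lower in females at 6 of 6 clock times in both treatments, Ccne2 at 6 in controls and 5 under misalignment.

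The MCM helicase unwinds DNA at the fork, and its 6 subunits had differences of unlike size. In controls Mcm6 (-0.74 ± 0.22), Mcm5 (-0.70 ± 0.26), Mcm2 (-0.68 ± 0.21) and Mcm7 (-0.31 ± 0.09) were lower in females, while Mcm3 (-0.31, adjusted p = 0.155) and Mcm4 (-0.30, adjusted p = 0.167) missed the threshold. Mcm5 lost the call when low genes were not filtered out (adjusted p = 0.0650) and without any 1 of 10 livers (adjusted p up to 0.0953). Under misalignment all 6 were lower in females, from -0.25 ± 0.09 for Mcm7 to -1.24 ± 0.25 for Mcm5. The medians of Mcm5 there were 3.61 CPM in females and 10.1 CPM in males, with ranges of 2.03 to 15.8 and 3.13 to 27.2 CPM. Cdc45, which completes the active helicase, was lower in females by -0.58 ± 0.16 in controls and -0.98 ± 0.16 under misalignment (adjusted p = 1.81e-06). The loader Cdc6 differed under misalignment (-1.01 ± 0.28, adjusted p = 0.00308), and in controls its difference was -0.43 ± 0.29 (adjusted p = 0.26).

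The enzymes of nucleotide supply split. Rrm1 and Rrm2, the subunits of the ribonucleotide reductase that makes deoxynucleotides, were lower in females in both treatments, Rrm1 by -0.48 ± 0.10 (adjusted p = 2.36e-04) and Rrm2 by -0.77 ± 0.19 (adjusted p = 0.00123) in controls. The thymidylate synthase gene Tyms was lower by -0.25 ± 0.08 (adjusted p = 0.0131) in controls and had an adjusted p of 0.0716 under misalignment. Tk1 went the other way. Female control livers held 15.8, 33.8 and 64.9 CPM (lowest, median, highest) and male control livers 8.66, 17.5 and 42.4 CPM. The log2 difference was 0.94 ± 0.14 (adjusted p = 5.69e-07) in controls and 0.82 ± 0.14 (adjusted p = 5.37e-06) under misalignment, with females higher at 6 of 6 and 5 of 6 clock times. Pcna differed least in controls, by -0.09 ± 0.07 in controls (adjusted p = 0.373), and by -0.21 ± 0.07 under misalignment (adjusted p = 0.0167), and the second call was lost when ambiguous reads were counted (adjusted p = 0.0593).

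Of the 17 mitosis genes, 13 were lower in control females and 14 in misaligned females, and every difference was negative. Cdc20, the activator of the anaphase-promoting complex, held 0.247, 0.823 and 1.42 CPM in control females and 0.631, 1.89 and 6.70 CPM in control males (lowest, median, highest). In 12 of 18 control males it was above every control female, and the log2 difference was -1.65 ± 0.34 (adjusted p = 1.1e-04). Cdk1, the mitotic kinase itself, had medians of 1.95 and 5.47 CPM and a difference of -1.26 ± 0.28 (adjusted p = 3.85e-04), also with 12 males above every female. Its partner Ccnb1 differed by -1.51 ± 0.36 (adjusted p = 7.8e-04) in controls and -1.78 ± 0.36 (adjusted p = 8.05e-05) under misalignment, and Ccnb2 by -1.22 ± 0.32 and -1.47 ± 0.32. Ccna2, the cyclin of S phase and of mitotic entry, differed by -0.92 ± 0.27 and -0.98 ± 0.27. The misaligned females were not uniformly low: a single liver at 0 h reached 8.76 CPM of Cdc20, above the highest male, while the median of those 18 females was 0.771 CPM.

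The kinases of the spindle followed. Aurka, which matures the centrosomes, was lower in females by -1.23 ± 0.25 (adjusted p = 9.3e-05) in controls and -0.94 ± 0.25 under misalignment. Reads on its antisense strand came to 0.58 of its sense reads. Aurkb, the kinase of the chromosomal passenger complex, differed by -0.76 ± 0.26 and -0.91 ± 0.26, and Birc5 (survivin), in the same complex, by -0.64 ± 0.20 and -0.91 ± 0.19. Of the misaligned females, 14 of 18 had less Birc5 than any misaligned male. Plk1, a kinase of mitotic entry and cytokinesis, was called in controls (-1.23 ± 0.36, adjusted p = 0.00644) and had an adjusted p of 0.0802 under misalignment (-0.77 ± 0.35). The checkpoint genes differed in turn. Bub1 was called in controls (-1.05 ± 0.39, adjusted p = 0.0307) and not under misalignment (-0.60 ± 0.34, adjusted p = 0.156). Its call was lost without any 1 of 8 livers (adjusted p up to 0.0821). Bub1b was called under misalignment (-0.74 ± 0.26, adjusted p = 0.0202) and not in controls (-0.58 ± 0.26, adjusted p = 0.0778).

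Top2a, which untangles sister chromatids, differed by -0.75 ± 0.26 (adjusted p = 0.0200) and -0.87 ± 0.26. Mki67, which coats mitotic chromosomes and is the usual marker of cycling cells, held 1.29, 4.03 and 9.78 CPM in control females and 1.17, 6.59 and 15.9 CPM in control males. Its difference missed the threshold in controls (-0.56 ± 0.26, adjusted p = 0.0855) and passed it under misalignment (-0.79 ± 0.26, adjusted p = 0.0151). The spindle proteins Cenpe (-0.98 ± 0.32 and -1.07 ± 0.31) and Nusap1 (-0.79 ± 0.28 and -1.19 ± 0.28) were called in both treatments. The motor Kif11 was called in neither (-0.48 ± 0.20, adjusted p = 0.0588, and -0.41 ± 0.21, adjusted p = 0.114). Foxm1, a transcription factor of mitotic genes, was called under misalignment (-0.83 ± 0.30, adjusted p = 0.0245) and not in controls (-0.35 ± 0.30, adjusted p = 0.39). Its call was lost with no filter on low counts (adjusted p = 0.0516) and without the misaligned male of 0 h, replicate 3 (adjusted p = 0.0643), 4 h, replicate 3 (0.0516), 8 h, replicate 3 (0.0564), or 12 h, replicate 1 (0.0527). Whether the sex difference itself differed between treatments was tested, and 0 of 32 genes passed (1 at an unadjusted p under 0.05; 0% of all genes passed).

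The count of calls in controls rested in part on single livers. Without the male control liver of 16 h, replicate 1, 16 genes were called in controls in place of 24, and the calls of Top2a (adjusted p = 0.104), Nusap1 (adjusted p = 0.0993), Aurkb (adjusted p = 0.0723), Ccnb2 (adjusted p = 0.0648), Cenpe (adjusted p = 0.0577) and Ccna2 (adjusted p = 0.0525) were lost, with those of Mcm5 and Bub1. The calls of Ccne1, Rrm1, Tk1, Cdk1, Ccnb1, Aurka and Cdc20 held without any 1 of the 72 livers. Without the 24 livers numbered 1, 6 genes were called.

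Other genes of the same processes, from lists drawn up with earlier results of these data known, were counted in the same fit. In controls 17% of all tested genes were lower in females and 16% higher. There 17 of 36 further replication genes were lower in females and 0 higher, with Dbf4, which activates the helicase (-1.04 ± 0.13), and Mcm10 (-1.06 ± 0.18) among the lower. Of 57 further mitosis genes 36 were lower and 1 higher, with Nek2 at -1.72 ± 0.21 and Ccnf at -1.04 ± 0.11. Of 37 regulators of the cycle 10 were lower, E2f1 (-0.97 ± 0.14) and Mybl1 (-2.14 ± 0.32) among them, and 3 were higher, Cdkn2c (0.70 ± 0.14) among them. In misaligned livers 21 of 36, 41 of 57 and 12 of 37 genes of these lists were lower in females, where 19.9% of all genes were. Higher in females there were 0, 0 and 5 genes of the 3 lists.

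Markers of other liver cells also differed between the sexes. The 5 hepatocyte markers summed to a median of 109260 CPM in control females and 84012 CPM in control males. Only 1 of the 5 was called higher in control females and 0 lower, with a median difference of 0.05 over the 5. Of the 5 stellate cell markers 2, Col1a1 (-1.80 ± 0.37) and Dcn (-0.42 ± 0.09), were lower in control females and 3 (Lrat, Reln and Des) were not called, with a median difference of -0.12 over the 5, and the summed list ran from 260 to 493 CPM in females and from 296 to 793 CPM in males. Of the 5 bile duct markers 2, Spp1 (-0.98 ± 0.28) and Sox9 (-0.50 ± 0.18), were lower and 3 (Krt19, Krt7 and Epcam) were not called, with a median difference of 0.03, and the sum ran from 52.3 to 207 CPM and from 43.9 to 625 CPM. Of the macrophage list 3 of 5 markers were higher in control females, and of the endothelial list 2 of 5. The erythroid list had 4 of 5 higher and 1 lower, and the T and NK cell and B cell lists 1 of 5 higher each. Of the 7 neutrophil markers 5 were tested, and 0 were called. Camp, a marker of neutrophil precursors, had a median count of 0 over all 72 livers. Under misalignment 1 stellate marker was called higher in females and 1 lower, with a median difference of 0.02 over the 5. The bile duct list there also had 1 higher and 1 lower, with a median of -0.09. The shares of all tested genes that differed between the sexes are given above. The part of these cells in the sex difference of the division genes was not tested.

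Averaged over the day, none of the 32 genes was called for an effect of misalignment in either sex by edgeR's test. The median SE of this effect over the 32 genes was 0.27 in females and 0.23 in males. Over all tested genes it was 0.10 in either sex, so the missing calls do not show that the 32 genes were unchanged. In females 0 genes were called and 1 had an unadjusted p under 0.05 (Mcm7, adjusted p = 0.743), where 0.00664% of all genes were called, and 15 of 32 differences were positive. In males 0 genes were called and 1 had an unadjusted p under 0.05 (Ccne1, adjusted p = 0.79), where 0% of all genes were called. The male differences were positive for 27 of 32 genes and for all 15 replication genes, with a median of 0.27 over the replication genes and 0.07 over the mitosis genes. DESeq2, run on the same counts, also called 0 in both sexes. With ambiguous reads counted, the median difference over all tested genes in males was 0.009. The 32 genes tended to move together between livers, as described further down, so 27 positive differences are not 27 separate results.

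The replication genes of control males followed the time of day. In these livers 12 of 15 replication genes and 0 of 17 mitosis genes followed a 24 h cosine (2 degrees of freedom in the quasi-likelihood fit, adjusted p under 0.05), where 10.8% of all genes did. The fitted peaks of the 12 genes lay between 9.70 and 12.4 h of clock time, and their amplitudes, from mean to peak, between 0.29 and 1.12 on the log2 scale. Tk1 had the smallest p (amplitude 0.82 ± 0.15, peak 12.4 h, adjusted p = 2.81e-04), followed by Ccne1 (0.99 ± 0.20, 9.70 h, adjusted p = 6.3e-04) and Rrm1 (0.52 ± 0.11, 10.5 h, adjusted p = 0.00158). All 6 MCM genes were among the 12, with Mcm5 at an amplitude of 1.12 ± 0.27 (adjusted p = 0.00443), which is a 4.75-fold range from trough to peak, and Mcm6 at 0.96 (adjusted p = 0.0081). Ccne2 (adjusted p = 0.0104), Pcna (adjusted p = 0.0177) and Cdc45 (adjusted p = 0.0333) completed the count, while Cdc6 (adjusted p = 0.0591), Rrm2 (adjusted p = 0.104) and Tyms (adjusted p = 0.195) missed the threshold. Without the male control liver of 12 h, replicate 2, 6 genes were called in place of 12. Replication genes tended to move together between livers, as described further down, so the 12 calls are not 12 separate results.

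**Figure D2:**
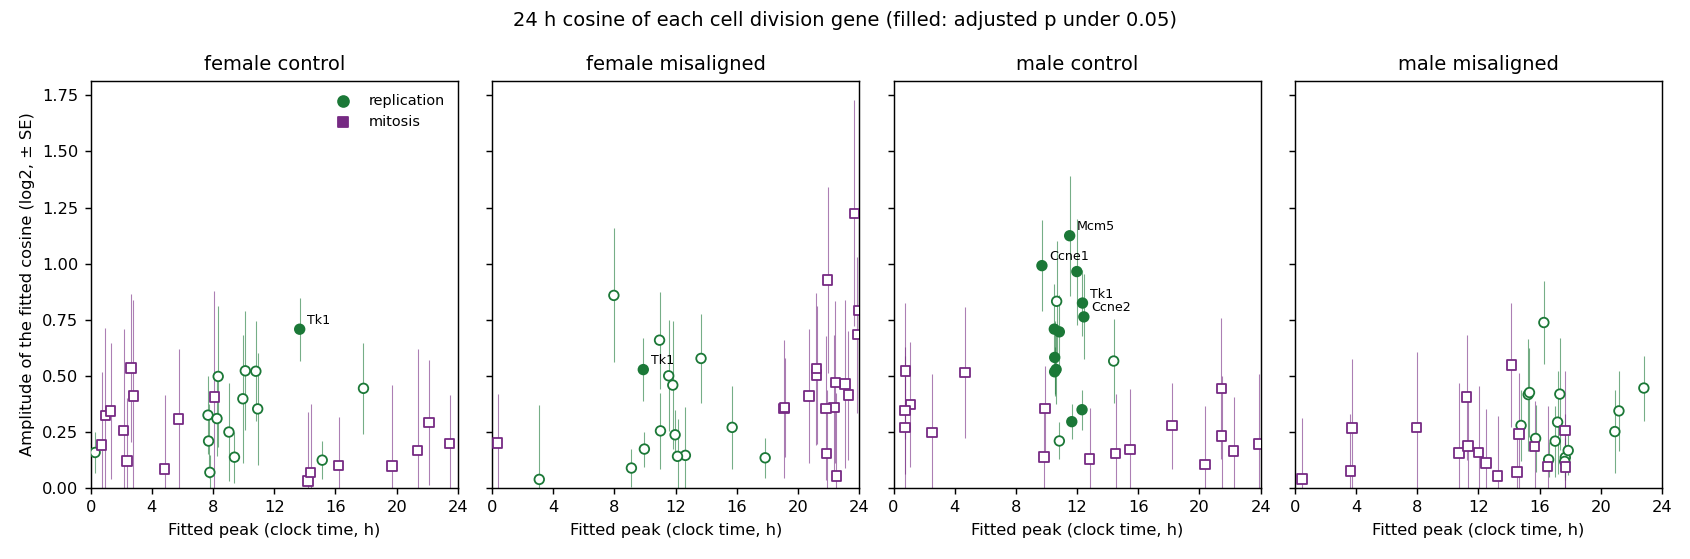
Amplitude (log2, mean to peak, ± SE) against fitted peak (clock time, h) of a 24 h cosine for the 15 replication genes (green circles) and 17 mitosis genes (purple squares) in each sex and treatment; filled points have an adjusted p under 0.05. In control males 12 replication genes are filled between 9.70 and 12.4 h, and in misaligned males none is.

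Single livers show how wide this cycle was. Mcm5 in control males stood at 20.5, 27.1 and 19.4 CPM at 12 h and at 4.31, 3.82 and 3.68 CPM at 4 h, so the 2 times did not overlap. At 8 h its livers stood at 18.5, 3.63 and 17.4 CPM, 1 of them as low as at 4 h. Rrm1 in control males stood at 24.4, 27.1 and 30.6 CPM at 12 h and at 14.8, 11 and 10.5 CPM at 0 h. Pcna stood at 43.9, 45.5 and 42.7 CPM at 12 h, and only 1 other control male, at 16 h (41.9 CPM), came near these. Ccne1 was highest at 8 h, with 5.0, 1.45 and 4.6 CPM, and stood at 2.48, 3.05 and 2.80 CPM at 12 h and at 0.954, 0.867 and 0.452 CPM at 0 h.

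In control females only Tk1 was called among the 32 (amplitude 0.71 ± 0.14, peak 13.7 h, adjusted p = 0.00117), where 12% of all genes were. In misaligned females again only Tk1 was called (0.53 ± 0.14, peak 9.88 h, adjusted p = 0.0316), where 7.69% of all genes were, and this call was lost with no filter on low counts (adjusted p = 0.0675). The difference of rhythm between control females and control males was tested, and 0 of 32 genes passed (smallest adjusted p 0.464, Mcm7; 2 at an unadjusted p under 0.05), as did 0% of all genes. The larger number of calls in control males is therefore not shown to be a difference between the sexes. In misaligned males 0 of 32 genes were called by clock time (2 at an unadjusted p under 0.05), where 0.00664% of all genes were.

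The rhythm itself changed with misalignment in males for 4 genes: Tk1 (adjusted p = 1.09e-04), Ccne1 (adjusted p = 0.00168), Ccne2 (adjusted p = 0.0159) and Rrm1 (adjusted p = 0.0186). This is 12.5% of the 32 genes, near the 9.23% of all genes that changed. Mcm5 lay just over the threshold (adjusted p = 0.0516). The fitted peak of Tk1 stood at 12.4 h in control males and 22.8 h in misaligned males, and that of Ccne1 at 9.70 and 16.3 h, although neither misaligned fit was called (adjusted p = 0.462 and 0.185). In females 0 genes were called for this change (smallest adjusted p 0.409, Tk1, and 1 at an unadjusted p under 0.05), where 0.192% of all genes were. The difference between the sexes in this change passed for Tk1 (adjusted p = 0.0291), where 1.73% of all genes passed, and Ccne1 had an adjusted p of 0.0669. A test with no curve asked whether the effect of misalignment varied over the 6 clock times. It called the same first 3 genes in males, Tk1 (adjusted p = 6.49e-04), Ccne1 (adjusted p = 0.00325) and Ccne2 (adjusted p = 0.0399). These are 9.38% of the 32 genes, about the share of all genes that were called (9.26%). The Ccne2 call was lost with no filter on low counts (adjusted p = 0.0553) and with the older edgeR dispersion estimate (adjusted p = 0.0568). In females it called 0 (smallest adjusted p 0.658, Ccnb1; 3 at an unadjusted p under 0.05), where 0.0332% of all genes were called.

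Tk1 illustrates the change liver by liver. Control males stood at 8.66, 9.54 and 14.2 CPM at 0 h, 13.5, 15.3 and 9.16 CPM at 4 h, 21.2, 29.8 and 19.7 CPM at 8 h, 24.9, 29.4 and 26.1 CPM at 12 h, 22.8, 24.1 and 42.4 CPM at 16 h and 11.5, 12.9 and 10.1 CPM at 20 h. Misaligned males stood at 30.2, 35.6 and 12.5 CPM at 0 h, 38.9, 11.1 and 23.9 CPM at 4 h, 9.93, 15.3 and 11.5 CPM at 8 h, 24.8, 16.0 and 14.2 CPM at 12 h, 17.3, 10.7 and 22.9 CPM at 16 h and 16.2, 28.2 and 33.0 CPM at 20 h. The 2 treatments did not overlap at 8 h, where misaligned males were below controls, nor at 20 h, where they were above, and at 12 h the lowest control (24.9 CPM) and the highest misaligned male (24.8 CPM) nearly met. At 0 and 4 h both treatments overlapped, and there the misaligned livers of 1 group differed from each other by more than control livers did. At single clock times 1 gene was called in males, Tk1 at 20 h (1.16 ± 0.36, adjusted p = 0.0235), where 14.4% of all genes were called at that time. At the other clock times 0 of the 32 genes were called in males, where 0.378% of all genes were called at 0 h (0.173% of them as positive differences), 0.00664% at 4 h, 0.392% at 8 h (0.173% negative), 0% at 12 h and 1.08% at 16 h. All 15 differences of the replication genes were positive in males at 0 h, with a median of 0.80, and 9 had an unadjusted p under 0.05, led by Tk1 (1.28 ± 0.36, adjusted p = 0.115) and Ccne2 (1.61 ± 0.48, adjusted p = 0.175). With ambiguous reads counted, the median over all tested genes in males at 0 h was 0.02. Replication genes tended to move together between livers (median r 0.487), so these 15 are not 15 separate results. The count of 9 has no share of all genes under the same unadjusted cut beside it, so it does not show an excess. In females 0 of 32 were called at any clock time, where 0% to 0.0664% of all genes were (0.0597% as negative differences at 16 h). In misaligned females Tk1 stood at 53.4, 43.9 and 50.7 CPM at 8 h and at 17.5, 22 and 18.6 CPM at 20 h, and in control females at 25.6, 35.0 and 56.4 CPM and at 43.1, 32.6 and 26.8 CPM.

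**Figure D3:**
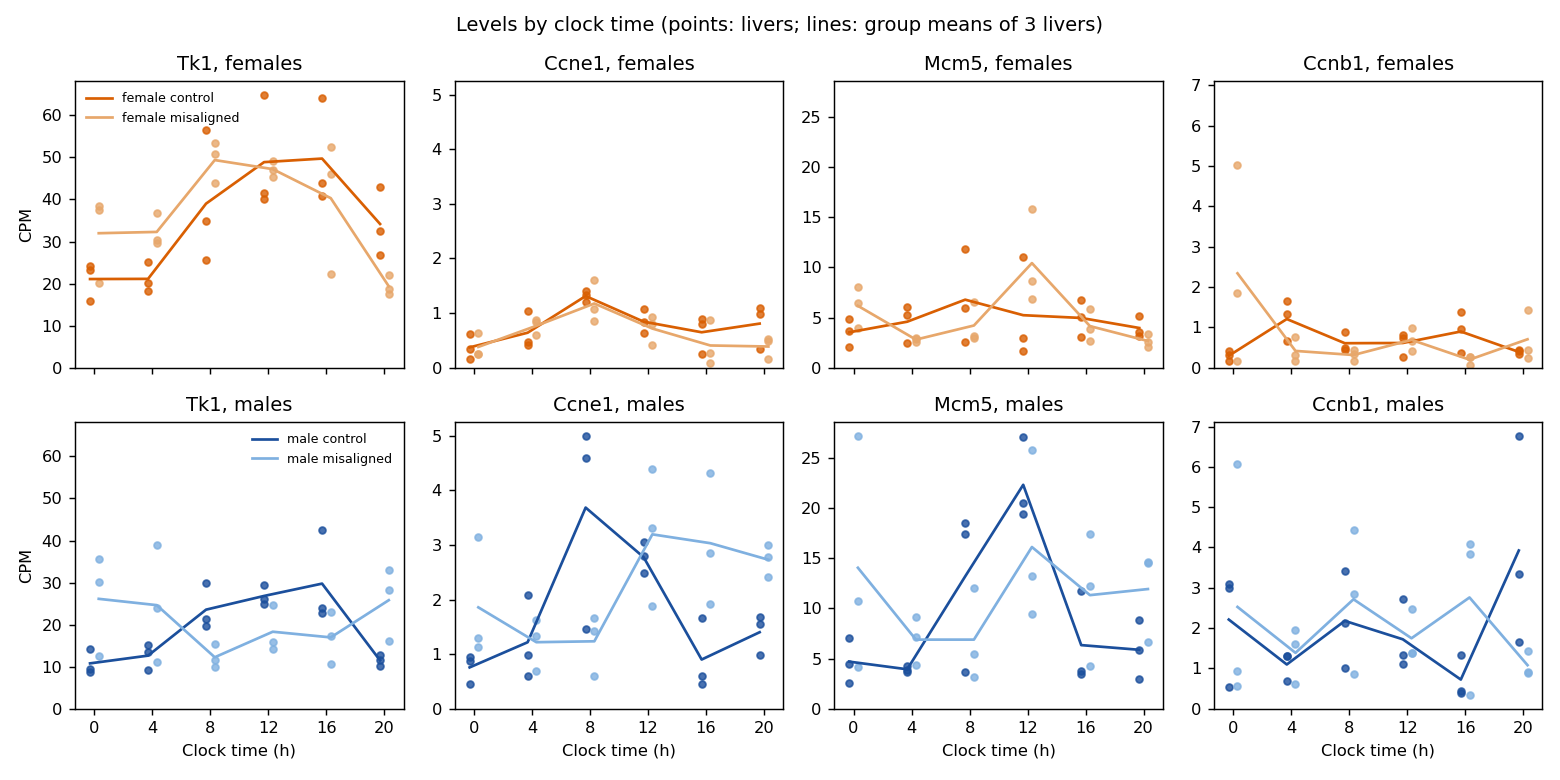
CPM of Tk1, Ccne1, Mcm5 and Ccnb1 against clock time (h) in females (top) and males (bottom), with control livers dark and misaligned livers light; points are single livers and lines join the means of 3. Mcm5 of control males is highest at 12 h (19.4 to 27.1 CPM), and the misaligned female liver at 0 h with 5.02 CPM of Ccnb1 stands far above the other misaligned females.

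At several clock times the differences of the mitosis genes with misalignment all had the same sign, without passing the test. In misaligned females at 0 h all 17 mitosis genes were above controls, with a median log2 difference of 1.19, and 8 had an unadjusted p under 0.05, but 0 passed after adjustment (smallest adjusted p 0.57, Plk1), and 0.00664% of all genes did. Ccnb1 there stood at 1.84, 0.165 and 5.02 CPM in the misaligned livers and at 0.413, 0.304 and 0.172 CPM in controls, so that 1 of 3 misaligned livers was as low as the controls. At 4 h all 17 were below controls in females, with a median of -1.15 and 0 called (4 at an unadjusted p under 0.05; 0.00664% of all genes were called). In males all 17 were above controls at 16 h, with a median of 1.28, and below at 20 h, with a median of -1.13, and 0 mitosis genes were called at either time (8 and 7 at an unadjusted p under 0.05), where 0.431% and 0.65% of all genes were called as positive and negative differences at 16 h, and 14.4% in all at 20 h. Ccnb1 at 20 h came closest (-1.87 ± 0.68, adjusted p = 0.0536), with 1.66, 6.77 and 3.34 CPM in controls and 0.915, 0.896 and 1.43 CPM in misaligned males. Ccnb2 at 16 h had an adjusted p of 0.0761. Since the mitosis genes of a liver rose and fell together, as described further down, 17 genes on 1 side at 1 time are not 17 separate results. The share of all genes with an unadjusted p under 0.05 is not set beside these counts, so they do not show an excess.

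A liver's molecular time was read from 12 clock genes, none of them among the 32, by matching their levels to the curve of control livers of the same sex. In misaligned males the mean offset from clock time was -7.28 h, where a negative value puts molecular time behind clock time, but with a wide scatter: 15 of 18 livers were off by more than 4 h, and the offsets had a concentration of 0.498 on a scale where identical offsets give 1. In misaligned females the mean offset was 2.26 h with a concentration of 0.932. Against molecular time, Tk1 in misaligned males followed a cosine of amplitude 0.75 ± 0.11 with a peak at 14.1 h (adjusted p = 2.11e-06), compared with 0.44 ± 0.14 by clock time. Pcna (0.34 ± 0.09, peak 11.6 h, adjusted p = 0.00851) and Rrm2, the regulated subunit of the reductase (0.59 ± 0.14, peak 15.9 h, adjusted p = 0.00935), were called as well. With Ccnb1 and Ccne1, 5 of the 32 genes (15.6%) were called, near the 12.7% of all genes. Ccnb1 (1.07 ± 0.34, peak 24 h, adjusted p = 0.0444) and Ccne1 (0.89 ± 0.28, peak 9.54 h) were just inside the threshold, and Ccne1 lost its call when any 1 of 56 livers was left out. Ccnb1 lost its call without any 1 of 16 livers (adjusted p up to 0.228, without the misaligned male of 0 h, replicate 3), with no filter on low counts (adjusted p = 0.0934), with ambiguous reads counted (adjusted p = 0.0660), with a block for the replicate number (adjusted p = 0.0681), with 6 clock genes (adjusted p = 0.0930) and with the older edgeR dispersion estimate (adjusted p = 0.0775). Mcm5 had an adjusted p of 0.0898. In misaligned females Tk1 (0.50 ± 0.11, peak 12.8 h, adjusted p = 0.0017) and Rrm2 (0.71 ± 0.19, peak 16.5 h, adjusted p = 0.0191) were called, where 11% of all genes were.

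The same tests on the further lists found 23 of 36 other replication genes rhythmic in control males, with Gmnn, the inhibitor of helicase loading, and Gins1, Chaf1b and Timeless at the smallest p-values, against 3 of 57 other mitosis genes (Ccnf, Spc25 and Spc24) and 5 of 37 regulators, where 10.8% of all genes were rhythmic. In misaligned males 0 genes of the 3 lists were called by clock time, where 0.00664% of all genes were. By molecular time 6 of 36, 5 of 57 and 8 of 37 were called, where 12.7% of all genes were. Wee1 peaked at 10.3 h in control males (amplitude 1.04 ± 0.14) and at 11.4 h in control females (1.54 ± 0.15), and in misaligned males its amplitude was 0.40 ± 0.13 by clock time and 0.98 ± 0.14 by molecular time. Cdkn1a, an inhibitor of cyclin-dependent kinases, peaked at 18.9 h in control males (1.45 ± 0.31).

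Livers of the same sex, treatment and time had a wide spread in these genes. The biological coefficient of variation fitted by edgeR, the spread between livers of a group beyond counting noise, had a median of 0.463 over the 32 genes, 0.515 over the mitosis genes and 0.335 over the replication genes, against 0.178 over all tested genes and 0.190 over the 10452 tested genes in the same range of mean level. All 17 mitosis genes and 11 of 15 replication genes lay above the value that edgeR fits for their level. Plk1 (0.618) and Ccnb1 (0.613) varied most, and Tyms (0.143) and Pcna (0.148) least. The summed level of the 17 mitosis genes ran from 8.84 to 96.2 CPM over the 72 livers, a 10.9-fold range with a median of 26.7, and that of the 15 replication genes from 105 to 318 CPM, a 3.02-fold range.

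The mitosis genes of a liver rose and fell together. After subtraction of each group's mean, Pearson's r over the 72 livers had a median of 0.724 over the 136 pairs of mitosis genes, and 134 pairs lay above 0.5. Over the 105 pairs of replication genes the median was 0.487, with 49 above 0.5, over the 255 mixed pairs 0.425, and over all pairs of tested genes -0.01, with 2.63% above 0.5. The points of each pair share their libraries. Mki67 and Top2a, taken as the marker pair of cycling cells, had r = 0.853 and Spearman's rho = 0.833 (n = 72, p = 1e-05 for both, the smallest that 100000 permutations can give), and r = 0.843 without the 2 livers farthest out in Mki67. Within the 4 combinations of sex and treatment r was 0.728 and 0.796 in control and misaligned females and 0.905 and 0.947 in control and misaligned males. Tk1 stood apart from both sets, with a median r of -0.348 with the mitosis genes and -0.176 with the other replication genes, while Mcm6 (0.635) and Mcm5 (0.565) had the highest median r with the mitosis genes among the replication genes.

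**Figure D4:**
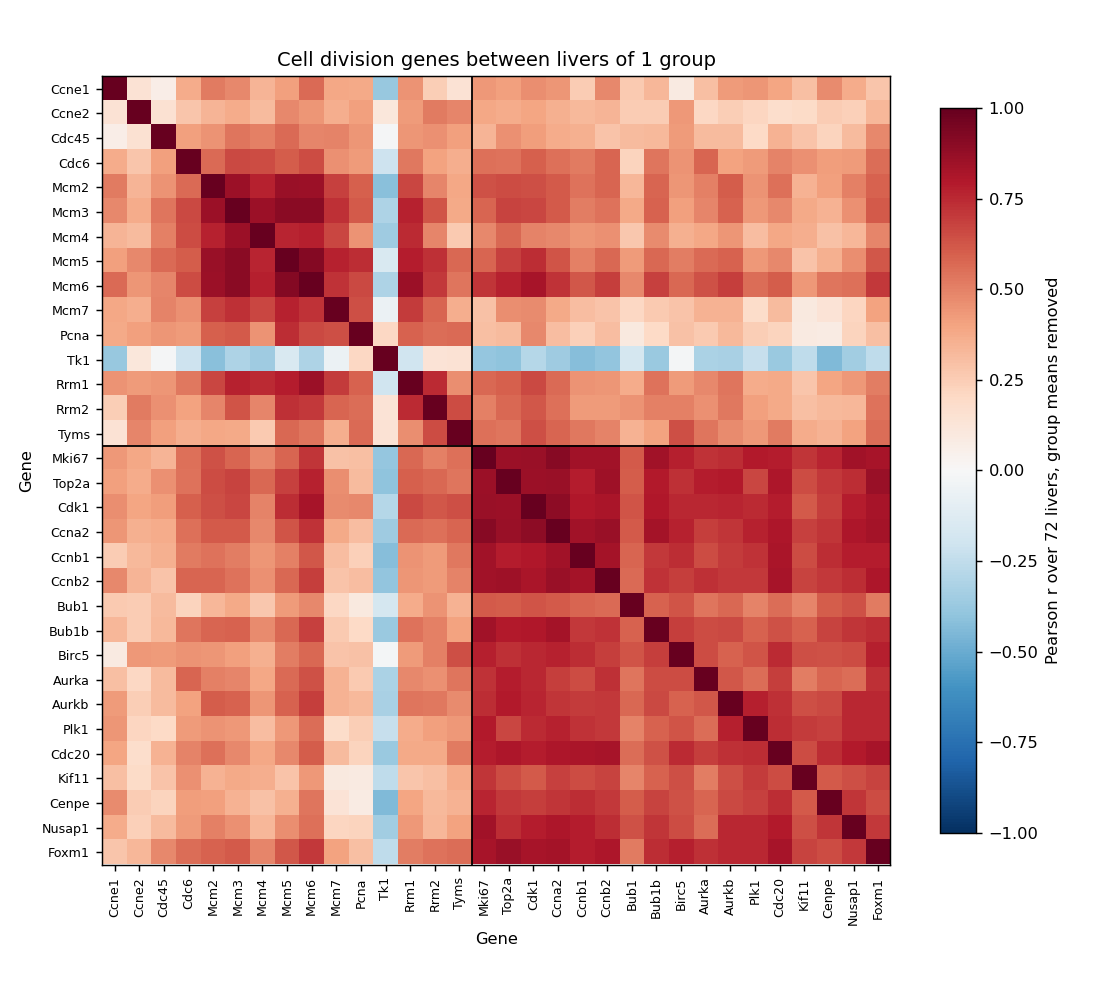
Pearson's r over 72 livers, after subtraction of group means, for each pair of the 32 genes, on a scale from blue (-1) to red (1); black lines part replication from mitosis genes. The block of mitosis genes is red throughout (median 0.724), the MCM genes and Rrm1 form a second red block, and the row of Tk1 is mostly blue.

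Single livers set the highest values. The misaligned female at 0 h, replicate 3, held 94.6 CPM of the 17 mitosis genes, and all 17 were above their group mean, while replicate 2 of the same group held 11.8 CPM with 0 above it. The misaligned male at 0 h, replicate 3, held 89.8 CPM and the control male at 20 h, replicate 2, held 96.2 CPM, again with all 17 mitosis genes above the group mean. In the misaligned male at 0 h 0 of 15 replication genes were above their group mean, and in the misaligned female 7 were. The control male at 16 h, replicate 1, had all 17 mitosis and 14 replication genes above the mean of its group. The control male at 0 h, replicate 3, held 12.6 CPM, with 0 of 17 above the mean of its group.

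Outside all cell cycle lists, the genes whose residual level followed the mean of the 17 mitosis genes best over the 72 livers were Stmn1 (r = 0.875), which destabilises microtubules, the spindle genes Knstrn (0.847) and Spag5 (0.815), Galns (0.827), AI506816 (0.825), the collagen gene Col5a2 (0.798), Arhgap11a (0.796), the kinesin Kif18b (0.792), Scube1 (0.788) and Sparc (0.786), a matrix protein. Of the other mitosis genes 50 of 57 had r above 0.5, of the other replication genes 13 of 36, of the regulators 6 of 37, and of all tested genes 8.28%. The summed stellate markers had r = 0.714 with the mitosis genes and the bile duct markers 0.667, the neutrophil markers 0.423, the macrophage markers 0.278, the T and NK cell markers 0.119, the endothelial markers 0.061, the B cell markers 0.054, the erythroid markers -0.125 and the hepatocyte markers -0.345. Single markers of a list were unlike. Taken singly, the stellate markers had a median r of 0.398 (0.175 to 0.682) and the bile duct markers 0.525 (0.430 to 0.666). The macrophage markers ran from -0.075 to 0.615, the endothelial from -0.248 to 0.538 and the hepatocyte from -0.782 to -0.128. These are descriptions over 72 livers that share their libraries, and the part of these cells in the spread of the mitosis genes was not tested.

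Tk1 lies on chromosome 11 of GRCm38 from 117815526 to 117826092 on the minus strand, in the GENCODE annotation, and its first bases overlap by 169 bases with Afmid (117825924 to 117839908, plus strand), the kynurenine formamidase of tryptophan breakdown. Afmid is not one of the 32 genes and was singled out after its values had been seen. It ranked 6 among the 15065 other tested genes in likeness to Tk1 over the livers, with r = 0.735 and Spearman's rho = 0.767 after subtraction of group means (n = 72), and r = 0.718 without the 2 livers farthest out in Tk1. These values are a description with no p, since the gene was picked for its likeness to Tk1. Within the combinations of sex and treatment r was 0.692 and 0.887 in control and misaligned females and 0.719 and 0.733 in control and misaligned males. Above it stood Ces1b (0.808), Ahcy (0.767), Slc29a1 (0.763), Asl (0.761) and F7 (0.747), genes of liver metabolism and clotting. Afmid shared the sex difference of Tk1: it was higher in females by 0.78 ± 0.14 in controls (adjusted p = 1.43e-05) and 0.93 ± 0.14 under misalignment. Like Tk1 it was called for rhythm in control females (adjusted p = 0.0438) and for the rhythm change in males (adjusted p = 0.00642). Unlike Tk1 it was not called for rhythm in control males (adjusted p = 0.161) or misaligned females (adjusted p = 0.502). With misalignment in males it was lower at 16 h (-1.41 ± 0.35, adjusted p = 0.0279), where Tk1 was not called, and not called at 20 h (adjusted p = 0.497), where Tk1 was. Reads antisense to Tk1 came to 0.0277 of its sense reads, and reads antisense to Afmid to 1.79e-04.

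**Figure D5:**
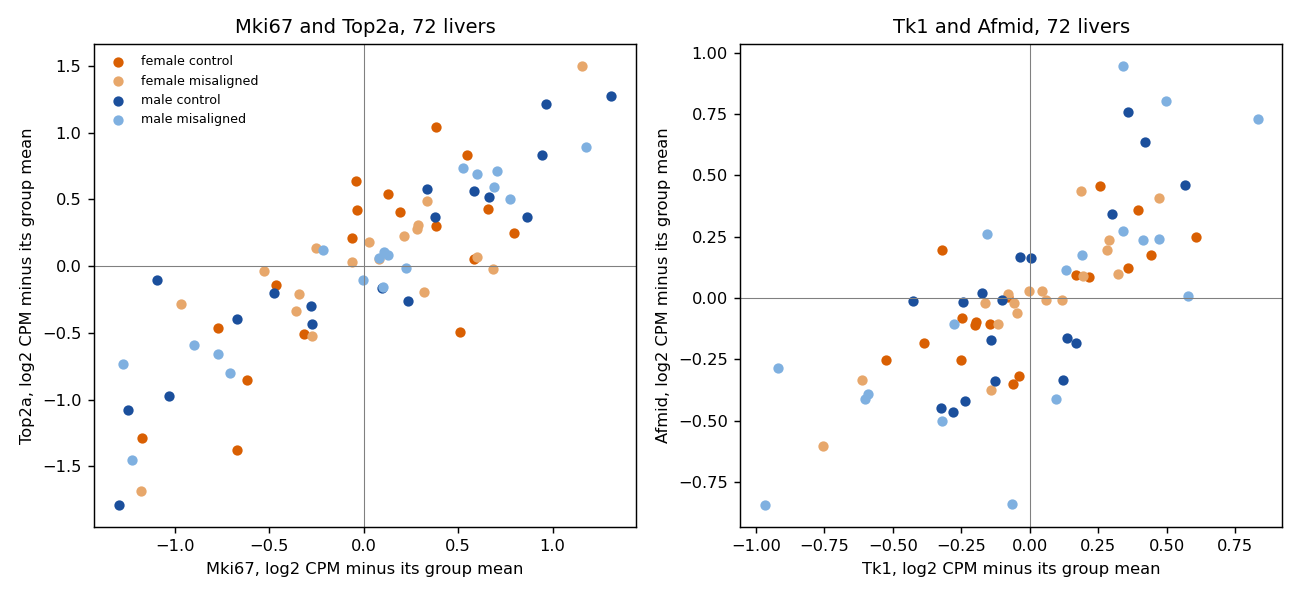
Levels minus group means (log2 CPM) of Mki67 against Top2a (left) and of Tk1 against Afmid (right), with 1 point per liver coloured by sex and treatment. Both clouds rise from lower left to upper right, with r = 0.853 and 0.735 over 72 livers.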

How the data were processed

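The deposited tables hold whole-number read counts per gene, in the sense direction and restricted to reads assigned to 1 feature, for 72 libraries of poly(A) RNA from whole liver (stranded kit and paired-end reads of 150 bases, per the labels). Reads were aligned with STAR 2.6.0c to GRCm38, per the submitters' processing notes. The settings of the counting step are not given in the sources used here. Tables that also count ambiguous reads, intron reads and antisense reads were used for alternatives and checks. From these counts, genes were kept by filterByExpr over the 24 groups and scaled by TMM factors (0.836 to 1.17), and edgeR 4.0.16 in R 4.3.3 fitted a robust quasi-likelihood model with 1 mean per group (48 residual degrees of freedom) or a cosine and sine of 24 h per sex and treatment (60). Tests were 2-sided and adjusted by the Benjamini-Hochberg method over all 15066 tested genes (threshold 0.05). Residual levels are log2 CPM with a prior count of 2, minus the group mean. Molecular time was read from 12 clock genes against control curves of the same sex. The members and all gene lists were chosen with earlier results of these data known. All 32 members are named, beside the called genes of 3 further lists (at most 4 each), the 10 genes most like the mitosis genes, Wee1 and Cdkn1a. Alternatives were DESeq2 1.42.0 with its RLE size factors, no filter, counts with ambiguous reads, a replicate block, 6 clock genes and leaving out livers. On simulated data of 15066 genes the test of the sex difference in controls recovered 78% of genes changed by 0.5 and 98% of those changed by 1 (log2), with 4 false calls. The test of rhythm in control males recovered 26% at an amplitude of 0.25, 82% at 0.5 and 98% at 1, with 6 false calls. The changed genes were drawn at random from tested genes above a low level, each with its own spread. The 32 genes spread more than tested genes at large (median coefficient of variation 0.463 against 0.178). These shares therefore do not give the recovery for the 32 genes.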

Additional observations from a re-analysis of the deposited data

Results flagged for a closer look

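One result differed between the sexes under the same contrast, by a test of that difference. The change of the 24 h rhythm of Tk1 with misalignment was unlike in females and males (adjusted p = 0.0291, edgeR's quasi-likelihood test on all 72 livers). The fitted amplitude and peak of Tk1 stood at 0.82 ± 0.15 and 12.4 h in control males and at 0.44 ± 0.14 and 22.8 h in misaligned males. In females they stood at 0.71 ± 0.14 and 13.7 h in controls and at 0.53 ± 0.14 and 9.88 h under misalignment. The peak of misaligned males lay after that of their controls and the peak of misaligned females before it, but the rhythm of misaligned males was itself not called (adjusted p = 0.462). The call was lost without the control male of 8 h, replicate 2 (adjusted p = 0.0533), the misaligned male of 8 h, replicate 1 (0.0510), or the misaligned male of 20 h, replicate 3 (0.0504), and with no filter on low counts (0.0636).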

How the results depend on the processing

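The counts of called genes were recomputed with RLE size factors, no filter on low counts, counts that include ambiguous reads (MAX counts), DESeq2, a block for the replicate number, 6 clock genes for molecular time and, added after seeing the data, the older edgeR dispersion estimate and fits on 1 sex or 1 treatment. Of 557 pairs of a called gene and such a setting 21 lost the call. Among calls that have a direction, the sex differences and the effect at a single clock time, 0 changed direction. Calls of rhythm and of effects unequal across clock times have no direction, and a shift of peak was not counted. Sex differences gave 23 to 25 genes in controls and 27 to 28 under misalignment, and rhythm in control males 10 to 12. The block for the replicate number gave 2 genes in place of 1 at single clock times in males, as did MAX counts. It ended the call of Ccnb1 by molecular time and moved no other count by more than 1.5 times. Rhythm in misaligned females gave 2 genes with DESeq2, 0 with no filter and 4 with 1 sex alone, against 1. The change of rhythm in males gave 2 with 1 sex alone, against 4. The sex difference of that change gave 2 with DESeq2 and 0 with no filter, against 1. Molecular time in misaligned males gave 3 with no filter and 3 with the older dispersion estimate, against 5.

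Leaving out the livers of 1 replicate number gave 6 (without number 1) to 21 genes for the sex difference in controls, 19 to 25 under misalignment, 0 to 2 at single clock times in males, 0 to 2 for effects unequal across clock times in males, 0 to 1 for rhythm in control females, 0 in misaligned females, 2 to 7 in control males, 0 to 1 in misaligned males, 2 to 5 for the change in males, 0 for its sex difference, 0 to 1 by molecular time in misaligned females and 1 to 2 in misaligned males. The median r of the mitosis genes ran from 0.674 to 0.775 and their median coefficient of variation from 0.458 to 0.576. Leaving out single livers gave 16 to 27 and 27 to 31 genes for the sex differences and 6 to 13 for rhythm in control males. The change of rhythm in males gave 3 to 9, 9 without the misaligned male of 12 h, replicate 1. Its sex difference gave 0 without the misaligned male of 8 h, replicate 1, or of 20 h, replicate 3, and 2 without the control female or the misaligned female of 16 h, replicate 3, the control males of 4 h, replicate 2, and 20 h, replicates 2 and 3, or the misaligned male of 12 h, replicate 3. Rhythm in misaligned females gave 0 without the livers of that group at 0 h, replicate 1, 8 h, replicates 1 and 3, 12 h, replicate 3, or 20 h, any replicate, and 2 without 12 h, replicate 2. Molecular time gave 1 to 3 in misaligned females, 1 without 12 h, replicate 3, and 3 to 5 in misaligned males. The value of 3 came without the misaligned males of 0 h, replicates 2 and 3, 4 h, 1 and 3, 8 h, 3, 12 h, 3, 16 h, 2, and 20 h, 1 and 3, the control males of 4 h and 12 h, replicate 1, or the misaligned female of 8 h, replicate 3. The cause of these changes was not tested.

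Replicate numbers did not pair the livers: the median correlation of deviations was -0.01 for livers of the same number and 0.00 for others, 253 of 828 pairs lay above 0.1, and 23 of 72 livers lay closest to their own number.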

Other observations

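Intron reads, which come largely from unspliced RNA, were summed per gene after the data had been seen. Of the 32 genes 15 had enough of them for a test, among 11209 genes. In controls only Tk1 and Cdk1 of the 15 were called, about the share of all genes (14.7%). The intron reads of Tk1 were higher in females by 1.30 ± 0.24 (adjusted p = 5.71e-05) and those of Cdk1 lower by -1.02 (adjusted p = 0.0321). The differences of the others ran from -0.90 for Mcm4 to 0.24 for Ccnb2. Under misalignment Tk1, Cdk1, Mcm2, Mcm5, Mcm6, Rrm1 and Rrm2 were called, Tk1 higher in females (1.13) and the others lower, where 17.2% of all genes differed. In control males the intron reads of Mcm5 (adjusted p = 0.0444) and Mcm2 (adjusted p = 0.0457) followed a 24 h cosine, where 2.57% of all genes did, and those of Tk1 did not pass (adjusted p = 0.127).

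Reads on the antisense strand were few beside most of the 32 genes. Aurka was the exception at 0.58 antisense reads per sense read, followed by Nusap1 (0.17) and Ccne2 (0.14).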
